A study of Homo sapiens with 2 samples.

Results

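LYL1, TAL1, TAL2, LMO1, LMO2, LMO3 and LDB1 were examined for H3K27ac, the acetylated lysine 27 of histone H3 that marks promoters and enhancers in use, in LOUCY, an established human T-cell acute lymphoblastic leukaemia (T-ALL) cell line. The series held 1 H3K27ac ChIP library and 1 library of input DNA from the same untreated line, grown in RPMI medium with fetal bovine serum. The peak caller kept 54357332 ChIP tags and 71932640 input tags. There were no replicates, so every value describes this pair of libraries and no difference was tested. The peaks of each gene were those that touched its body or the 40 kb on either side of it in hg19. This gave 33 of the 52203 peaks of the list, and none of them lay in more than 1 window. LYL1 had 8 peaks, LMO2 had 7, LMO1 had 6, TAL2 had 5, LDB1 had 4, TAL1 had 3 and LMO3 had 0. Each peak has a fold, the authors' ratio of ChIP signal to the local input level, and a -log10 p from their peak caller. As a check of lineage, the peak with the highest -log10 p of chromosome 7 (142493940 to 142511557, fold 26.4, rank 2 of all peaks) lay where the T-cell receptor beta chain is encoded. No other lineage marker, of T cells or of other cells, was examined.

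These genes encode parts, or close relatives of parts, of a transcription factor complex of blood stem cells and of the erythroid and megakaryocytic lineages. LYL1, TAL1 and TAL2 are closely related basic helix-loop-helix proteins that pair with E proteins and bind E-box sequences. LMO1, LMO2 and LMO3 are LIM-only proteins that do not bind DNA themselves but bridge the helix-loop-helix pair, GATA factors and LDB1, a widely expressed cofactor that dimerises and can link distant elements. TAL1 and LMO2 are shut down as normal thymocytes mature, and each of the helix-loop-helix genes and LMO1, LMO2 and LMO3 has been found activated in T-ALL. LYL1 and LMO2 are typically on in the immature subtype that LOUCY is used to model.

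The promoters of LYL1 and LDB1 are shown because strong peaks covered both 5' ends, and that of TAL1 because no peak did. The sequences are RefSeq's, of build GRCh38.p14, 250 bases before to 50 bases after the start site, written 5' to 3' on the minus strand, from which all 3 genes are transcribed. They lie at chr19:13102809-13103108 for LYL1, chr10:102114953-102115252 for LDB1 and chr1:47232286-47232585 for the TAL1 entry furthest 5'. These entries were not placed in hg19, so for none of the 3 is the start site shown known to be the 5' end used for the peaks. Capitals mark the letters AGATAA or TGATAA of GATA factors, read on either strand.
LYL1: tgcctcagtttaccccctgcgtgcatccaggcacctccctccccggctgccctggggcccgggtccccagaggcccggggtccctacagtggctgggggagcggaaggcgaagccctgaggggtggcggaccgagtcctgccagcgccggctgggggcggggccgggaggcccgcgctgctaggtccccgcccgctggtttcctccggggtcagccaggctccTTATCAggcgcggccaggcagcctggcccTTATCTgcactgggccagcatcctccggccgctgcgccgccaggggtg
LDB1: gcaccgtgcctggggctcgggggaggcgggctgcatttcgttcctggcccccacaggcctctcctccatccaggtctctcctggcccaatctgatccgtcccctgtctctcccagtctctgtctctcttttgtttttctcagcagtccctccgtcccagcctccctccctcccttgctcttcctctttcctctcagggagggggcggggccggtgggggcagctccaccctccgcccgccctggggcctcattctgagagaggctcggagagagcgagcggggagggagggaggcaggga
TAL1: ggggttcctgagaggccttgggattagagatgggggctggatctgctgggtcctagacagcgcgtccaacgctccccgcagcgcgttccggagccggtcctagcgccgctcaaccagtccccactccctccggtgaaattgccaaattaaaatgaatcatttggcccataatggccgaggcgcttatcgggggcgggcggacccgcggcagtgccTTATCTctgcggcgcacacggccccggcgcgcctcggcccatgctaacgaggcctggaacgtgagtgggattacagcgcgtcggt
The LYL1 promoter held both GATA forms, TTATCA beginning 27 bases before the start site and TTATCT beginning at base 3 counted from it. At least 2 such matches were found in 2.89% of 34943 RefSeq promoters, and at least 1 in 16.3%. The TAL1 promoter shown held TTATCT beginning 35 bases before the start site. The LDB1 promoter shown held no match to any form searched. The other forms were CANNTG, an E-box, found in 68.7% of promoters, with CAGATG (14.7%) and CAGCTG (17.9%) as special cases of it. TGTGGT of RUNX factors was found in 13.1%, and CAGGAAG and CCGGAAG of ETS factors in 12.7% and 10.2%. None of these was in the LYL1 promoter, and the TAL1 promoter shown held a single CANNTG. A second RefSeq entry for TAL1, at chr1:47231666-47231965, held no GATA form and no CANNTG, but 3 matches to TGTGGT. All 3 promoters shown were rich in G and C, at 74.7% for LYL1, 67.0% for LDB1 and 64.3% for TAL1, against a median of 58.7%. A match is only a run of letters, and binding was not measured. The 6 genes with an entry in the table are all but LMO2.

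LYL1 carried the strongest peak of the 7 windows and one of the strongest of the genome. The peak ran from 13203790 to 13220053 of chromosome 19, 16264 bp, with a fold enrichment over input of 21.6 and a -log10 p of 168. It ranked 5 by fold and 815 by width among all peaks, and only 2 others were at least as strong and at least as wide. It reached from 6.05 kb upstream to 10.2 kb downstream of the 5' end, so that it covered 100% of the 4 kb gene body. Gene ends were known to 1 kb, and all distances from a 5' end carry that rounding. Of the value summed as fold times width over the window, 84.2% was in this peak. By the gene order of GRCh38.p14, NFIX lies next to LYL1 on its 3' side and TRMT1 on its 5' side. Neither was placed in hg19, so the peak may also cover parts of them.

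The other peaks around LYL1 were smaller. A peak 12.2 to 19.1 kb upstream (13226202 to 13233064, 6863 bp) had a fold of 7.15, and lay towards TRMT1 and NACC1. One that began 36.4 kb upstream had a fold of 4.13. The remaining 5 had folds from 2.17 to 2.96, below the median of 3.08 of all peaks. Outside the window, 5.52 kb beyond its upstream edge, lay a peak of 24594 bp with a fold of 13.0 (13259522 to 13284115).

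TAL1, the namesake of the complex in stem cells and red cell precursors, had no peak in its 16 kb body or at its 5' end. The stretch without a peak ran for 58.9 kb, from 47645597 to 47704451 of chromosome 1. Of 52180 gaps between peaks, 9061 (17.4%) were as long or longer. These gaps hold 72.4% of the genome, so most of the genome lies in such a gap. The window held 3 peaks. The strongest lay 52.4 to 53.6 kb downstream of the 5' end, beyond the gene (47644381 to 47645597, 1217 bp), with a fold of 4.78 and a -log10 p of 12.7. Its rank by fold was 16229 of all peaks. PDZK1IP1 is the next protein-coding gene on that side, and enhancers of TAL1 used by red cell precursors are known beyond it. Whether this peak lies on one of them was not examined.

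Upstream of TAL1, towards STIL, lay a pair of weak peaks. The nearer one, 6.45 to 7.73 kb from the 5' end (47704451 to 47705734, 1284 bp), had a fold of 2.94. The further one, 9.21 to 9.67 kb away and 465 bp wide, had a fold of 2.24. Both were below the median fold of all peaks. A stronger peak lay outside the window, 40.1 kb beyond its upstream edge (47778143 to 47781756, 3614 bp), with a fold of 10.3. STIL was not placed in hg19, so this peak may cover part of it, and no gene was assigned to the peak. In some T-ALL, short insertions a few kb upstream of TAL1 create an enhancer, and in others a deletion joins TAL1 to STIL. A peak list shows neither kind of change, and the sequence of this line was not examined.

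TAL2, a short gene that is activated by translocation in rare T-ALL, had no peak at its 5' end either. Its 5 peaks had folds from 2.58 to 4.84. The closest lay 5.05 to 5.71 kb upstream (108418294 to 108418951 of chromosome 9), with a fold of 3.11. The widest, 10.8 to 13.8 kb downstream (108434812 to 108437768, 2957 bp), had a fold of 4.54. The strongest, 32.2 to 34.6 kb downstream on the side of TMEM38B, the next protein-coding gene there (108456233 to 108458576), had a fold of 4.84. How TAL2 stood to TAL1 depended on the flank. Within 10 kb the highest fold was 4.54 for TAL2 and 2.94 for TAL1. Within 100 kb it was 4.84 for TAL2 and 10.3 for TAL1. The value of 10.3 is that of the peak 80.1 to 83.8 kb upstream of TAL1, towards STIL, to which no gene was assigned.

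Of the LIM-only genes, LMO2 was the one with a peak at its 5' end. This peak ran from 33909802 to 33921503 of chromosome 11, 11702 bp, with a fold of 8.87 and a -log10 p of 57.2, rank 4573 by fold and 1663 by width. It reached from about 7.5 kb upstream to 4.20 kb into the gene, and held 50.3% of the window's fold times width. A second broad peak lay inside the gene, 17.6 to 25.5 kb downstream of the 5' end (33888460 to 33896418, 7959 bp), with a fold of 6.13. LMO2 is known to be transcribed from more than one promoter, a distal one at the far 5' end and others within the longest transcript. Which promoters the peaks covered was not determined.

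Upstream of LMO2 the mark was broad and weaker. Peaks 14.2 to 21.1 kb upstream (6900 bp, fold 3.08) and 37.3 to 44.5 kb upstream (7172 bp, fold 3.79) lay there, against a median width of 1670 bp and a median fold of 3.08 over all peaks. The second of them crossed the edge of the window. Peaks covered 41.4% of the 34 kb gene body. Another peak, 6.23 to 7.85 kb into the gene, had a fold of 2.40, and a pair near the 3' end, 307 and 231 bp wide, had folds of 2.18 and 2.61.

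LMO1, a T-ALL oncogene that is normally a gene of the nervous system, had 1 strong peak, and it lay outside the gene. It ran from 8222977 to 8230759 of chromosome 11, 7783 bp, 59.2 to 67.0 kb downstream of the 5' end, past the 44 kb gene body and on the side of RIC3. Its fold was 8.30, rank 5757 of all peaks, and its -log10 p was 45.1. It held 72.8% of the window's fold times width, and 3 weaker peaks followed it on the same side, with folds of 2.22, 4.50 and 3.22. Within the gene there were only narrow weak peaks, 4.72 to 5.73 kb from the 5' end (fold 2.41) and 8.48 to 8.89 kb from it (fold 2.25). No gene was assigned to the strong peak.

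LMO3, which is mainly expressed in the nervous system, had no peak in its 142 kb window. It lay in a stretch without a peak of 1.02 Mb, from 16352407 to 17373411 of chromosome 12. Of 52180 gaps between peaks, 331 were as long, and these long gaps make up 22.1% of the genome. The nearest peak was 411 kb from the 5' end, beyond the gene, 772 bp wide with a fold of 2.21. Of consecutive windows as long as that of LMO3, 57.2% held a peak.

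LDB1, the cofactor shared by these complexes, had a strong peak at its 5' end. It ran from 103871841 to 103882770 of chromosome 10, 10930 bp, with a fold of 12.9 and a -log10 p of 69.2, rank 599 by fold and 1902 by width. It reached from 2.77 kb upstream to 8.16 kb downstream and covered 62.8% of the gene body. A peak 11.9 to 15.6 kb upstream (103891908 to 103895616), on the side of PPRC1, had a fold of 7.30, and one 13.4 to 16.5 kb downstream, just past the gene, had a fold of 5.70. The fourth, 31.1 to 33.4 kb upstream, covered the start of NOLC1, a nucleolar protein gene at 103912146 in hg19, with a fold of 5.28. A peak of fold 7.24 on the side of HPS6 lay 0.356 kb outside the window and was not counted.

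**Figure D1:**
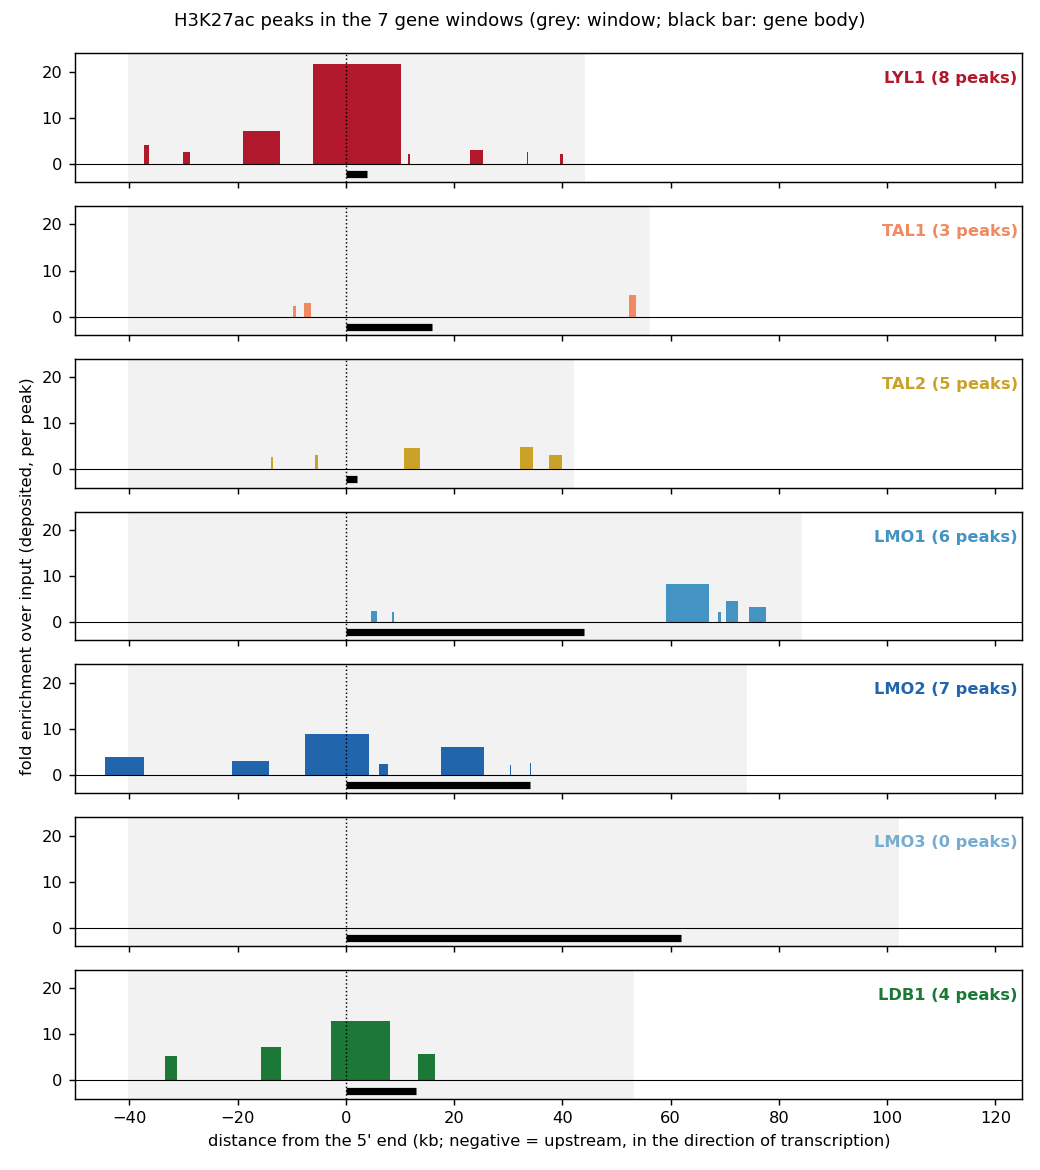
Each panel shows the window of one gene (grey) with its peaks as bars, from edge to edge, plotted by distance from the 5' end in kb (negative is upstream) against the deposited fold enrichment over input. The black bar is the gene body. LYL1, LMO2 and LDB1 have a peak across the 5' end (folds 21.6, 8.87 and 12.9), the strong peak of LMO1 lies past its 3' end, and LMO3 has none.

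A peak at the 5' end was thus found at 3 of the 7 genes, LYL1, LMO2 and LDB1, against 60.9% of 284 protein-coding genes in a small hg19 sample. The fold of 21.6 at LYL1 was above that of all 173 sample genes with a peak at the 5' end, whose highest was 18.1. LDB1, at 12.9, was exceeded by 5 of them. LMO2, at 8.87, was exceeded by 41, with the median of the sample at 7.34 and its upper quartile at 8.77. The fold at LYL1 was 1.68 times that at LDB1 and 2.44 times that at LMO2.

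At the level of windows, 6 of the 7 genes had a peak, against 87.3% of the sample genes. A fold of 6 or more was reached in 4 windows (LYL1, LMO1, LMO2 and LDB1), against 70.4%, and a fold of 10 or more in 2 (LYL1 and LDB1), against 27.5%. In the LMO1 window the highest fold, 8.30, was above that of 49.3% of the sample windows. The sample windows were not matched in length to those of the 7 genes, which were 82 to 142 kb. The longest, that of TRIM40, was 28852354 bp with 883 peaks, and neighbouring sample genes can share a peak. Peaks covered 34.6% of the LYL1 window, more than in 97.9% of the sample windows. The share was 27.6% for LMO2 and 21.6% for LDB1, more than in 95.8% and 90.1% of the sample. LMO1, with 12.0%, and TAL2, with 10.6%, lay within the upper part of the sample's middle range of 2.83 to 14.3%. TAL1 had 3.09% and LMO3 0%, against a sample median of 6.00%.

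**Figure D2:**
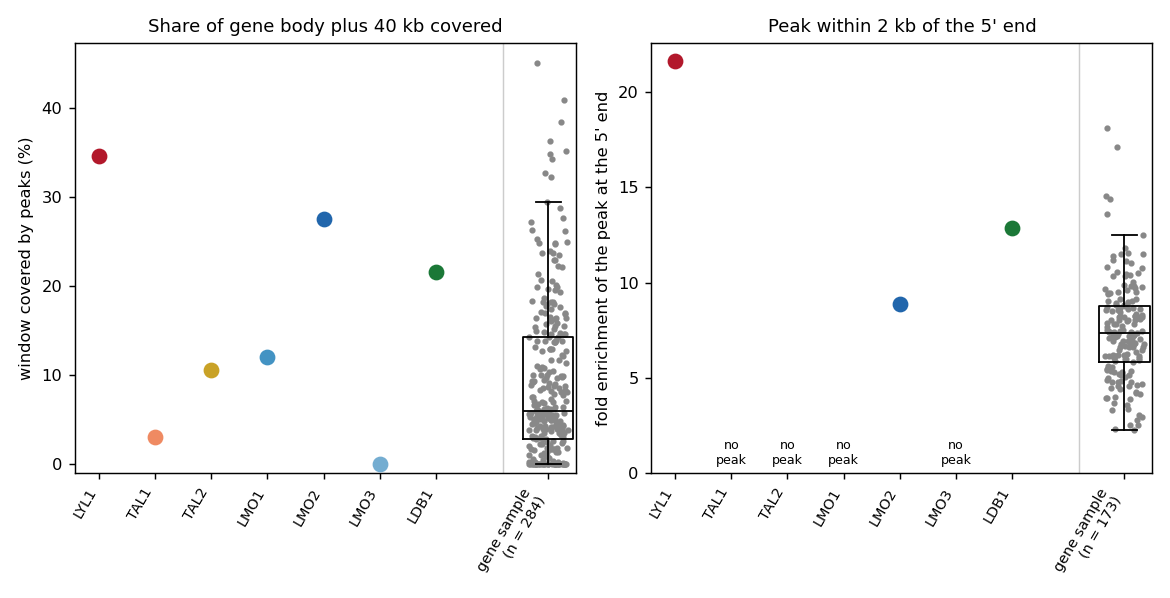
Left, the share of each gene's window (body plus 40 kb on either side) covered by peaks, in %; right, the fold of the peak within 2 kb of the 5' end. Coloured points are the 7 genes, grey points the hg19 sample genes (284 windows, 173 peaks), with the box from quartile to quartile, the median as a line and whiskers within 1.5 times the box height. LYL1 is above all sample genes on the right, and 4 genes have no peak there.

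By fold, the 33 peaks as a set lay close to the whole list, while they were wider at the median. Their median fold was 3.11 against 3.08 for all peaks, and their median width was 2202 bp against 1670 bp. A fold of 6 or more was found in 7 of them (21.2%) against 23.2% of all peaks, a fold of 10 or more in 2 (6.06%) against 5.21%, and a fold below 3 in 14 (42.4%) against 48.2%. The peaks were denser, at 4.49 per 100 kb of window against 1.72 per 100 kb of genome, and covered 14.6% of the windows against 4.90% of the genome. The gene sample above, not the genome, is the closer comparison for that. Of the 7 peaks of fold 6 or more, 3 were the peaks at the 5' ends of LYL1, LMO2 and LDB1.

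**Figure D3:**
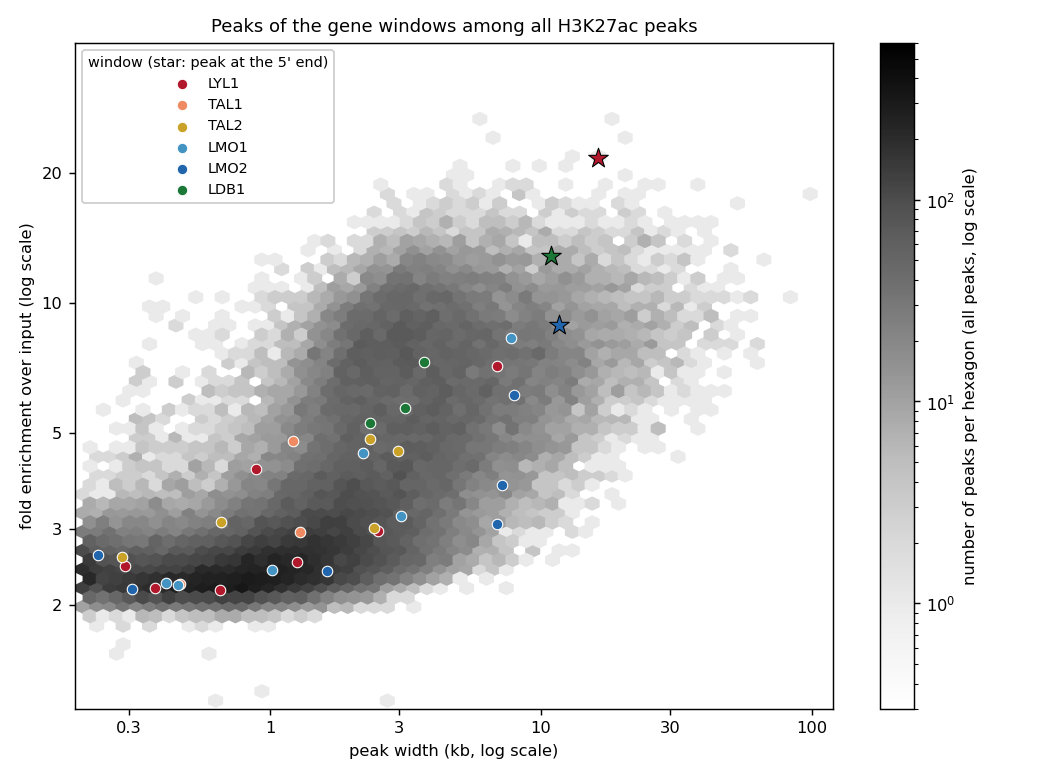
All 52203 peaks are binned in grey by width (kb, log scale) and deposited fold over input (log scale), and the 33 peaks of the gene windows are coloured by gene, with stars for those at a 5' end. The 3 stars lie at the wide and strong side, with LYL1 at 16264 bp and a fold of 21.6.

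Fold is relative to the local input, and the input level that the fold and the p-value imply differed between the genes. It was 6.88 at the LYL1 peak, 5.82 at the LDB1 peak, 9.48 at the LMO2 peak and 8.07 at the strong LMO1 peak, against a median of 6.34 over all peaks and of 7.61 over peaks of fold 6 or more. The implied ChIP pileup was 169.5 at LYL1, 86.7 at LDB1, 92.0 at LMO2 and 74.2 at LMO1. Among the 7 genes LMO2 therefore ranked 2 by implied pileup and 3 by fold, while LYL1 ranked 1 by both. Among all peaks LYL1 ranked 5 by fold and 86 by implied pileup. At the 3 TAL1 peaks the implied input level was 4.32 to 5.10, near the lowest value of the list, 4.11. The kept ChIP tags times the fragment length, over the effective genome size, also give 4.11, a genome-wide average. Levels close to it may thus reflect that average and not the local input.

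Joined to their neighbours within 12.5 kb, the 5' ends of LYL1, LMO2 and LDB1 fell into large domains, 3 of the 7 genes against 7.39% of the sample genes. Of all 25510 joined regions, 5.57% were large. The LYL1 domain spanned 147 kb (13173833 to 13320771, 13 peaks) and ranked 39. The LYL1 peak gave 43.0% of its value and the 24594 bp peak outside the window gave 39.2%, so the rank was not that of LYL1 alone. The LDB1 domain spanned 32.2 kb (103863451 to 103895616, 3 peaks) and ranked 940. The LMO2 domain spanned 55.4 kb (33879755 to 33935109, 6 peaks) and ranked 992, with 58.0% of its value from the peak at the 5' end and 27.3% from the peak inside the gene. With joining within 5 kb, LMO2 was no longer in a large domain and LYL1 ranked 207, and with ranking by width alone LDB1 was no longer in one.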

How the data were processed

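H3K27ac was measured by ChIP-seq in 1 LOUCY library, against 1 library of input DNA. Bowtie2, MACS2 and the build hg19 are named in the submitters' processing notes. Per the file headers, MACS2 version 2.1.0.20140616 called broad peaks from 84 bp tags with a fragment length of 204 bp. It kept 1 tag per position, which limits the height of strong peaks. Fold enrichment, a deposited value for each whole peak, was read as the ratio of ChIP to local input. The -log10 p and -log10 q values are those deposited by the authors. All served only to describe and rank peaks. Read counts per peak were not used here, so no interval is attached to a fold.

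Gene bodies (hg19, rounded to 1 kb) were extended by 40 kb on either side, and any peak touching by 1 bp or more was counted. Strands came from the RefSeq promoter table (GRCh38.p14), and for LMO2 from general knowledge. A peak within 2 kb of the 5' end counted as a peak there. The input level implied by fold and p was solved per peak from the Poisson distribution with 1 added to pileup and control. The implied ChIP pileup was computed from this level and the fold. Both are approximate for broad peaks, and their accuracy for them was not tested. The deposited pileup values were not used. Large domains were peaks joined within 12.5 kb, ranked by summed fold times width and divided where the rank curve reached a slope of 1. The 284 comparison genes are the protein-coding ones of a small UCSC hg19 sample in pyranges 0.1.4, which also gave chromosome lengths. They were taken up after the peak list had been seen, and how that sample was chosen is unknown.

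The genes and lists were chosen with earlier results of these data known. All 7 genes were named, with the peak at each 5' end, the strongest and widest peak of each window and every peak of fold 6 or more. With 1 library per group, no test was made. Alternatives were other flanks, thresholds, overlaps, ranking values and joining distances. Planned counts over further pathway genes and lineage markers, which need an hg19 annotation, and a protein comparison were not run. Python 3.11.15 was used with numpy 2.4.6, pandas 2.3.3 and scipy 1.17.1.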

Additional observations from a re-analysis of the deposited data

How the results depend on the processing

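The peak at the 5' end of LYL1, LMO2 and LDB1 was found under all 6 alternatives, and a window of 5 kb either side added LMO1, for 4 genes. The number of peaks in the windows was 33. It was 8 with no flank, 15 with 10 kb and 54 with 100 kb either side, and 17 at a -log10 q of at least 5, 13 at a -log10 q of 10 or more and 14 at a fold of at least 4, because each alternative counts a smaller or larger window or drops weak peaks. The median covered share of the 7 windows, 12.0%, was 3.24% with no flank, 8.40% with 10 kb, 11.4% with 100 kb, 9.42% where -log10 q was 5 or more, and 8.05% both where it was 10 or more and at a fold of at least 4. The number of genes with a fold of 6 or more in the window was 4, and 3 to 5 over the alternatives. The order by highest fold depended on the flank. With 100 kb the TAL1 window reached 10.3, above LMO2 (8.87), LMO1 (8.30) and TAL2 (4.84). That peak lay 80.1 to 83.8 kb upstream of TAL1, towards STIL, and no gene was assigned to it. With 10 kb LMO1 (2.41) was below TAL2 (4.54) and TAL1 (2.94). In the 40 kb windows LMO2 and LDB1 changed places by widest peak, by summed fold times width and by implied pileup. Genes in a large domain numbered 3, and 2 under each of the 3 alternatives: LMO2 was lost with joining within 5 kb and when -log10 q had to reach 10, and LDB1 by width alone; the cause was not tested. The LYL1 domain ranked 143 with the stricter limit on q and 159 by width alone. No paired analysis was possible because each group consisted of 1 library. Without replicates or read counts per peak, differences between near folds cannot be judged.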
